A study of Homo sapiens with 2 samples.

Results

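RANBP2 and the 7 RGPD genes listed beside it (RGPD1, RGPD2, RGPD3, RGPD4, RGPD5, RGPD6 and RGPD8) are a family of close copies on human chromosome 2. The 8 genes were taken by symbol from 27685 genes in the deposited data. They were chosen by the measured ratio of RGPD8 between the libraries, which was high, and by their close sequences, between which reads may be shared. Their ratios are therefore given as a description. The cells were NCI-H838, an established line of human lung adenocarcinoma. The LINC00472 culture was transiently transfected with the plasmid pCDH carrying LINC00472, a long intergenic noncoding RNA. The control culture received the empty pCDH plasmid. Both were transfected with Lipofectamine 2000 and total RNA was taken after 48 hours, with 1 library per group. No difference here has a replicate check. Every interval reflects counting error alone, because it is computed from the counts of 1 library per group. Several reads can come from a single molecule, so the intervals can be too narrow even for that error. In bulk RNA, fewer cells with a transcript and less transcript per cell cannot be told apart.

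RANBP2, also called NUP358, is a large nucleoporin of the filaments on the cytoplasmic face of the nuclear pore. It binds the GTPase Ran, holds SUMO-modified RANGAP1 at the pore and acts as a SUMO E3 ligase. The RGPD genes arose in primates when part of RANBP2 was duplicated and joined to the GRIP-domain end of GCC2, a golgin of the trans-Golgi. Their name stands for RANBP2-like and GRIP domain.

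The LINC00472 library held 21093055 gene counts and the control library 54823706. The transcript LINC00472 had 5655 counts with the LINC00472 plasmid, against 2563 with the empty plasmid, a log2 ratio of 2.23. Ratios are of counts scaled with TMM factors, and CPM are counts on that scale divided by the library size. Epithelial markers were present, with 5 of 5 at 1 CPM or more in each library. They summed to 118 CPM with LINC00472, against 541 CPM in control cells. The keratins KRT7, KRT8 and KRT18 were lower (log2 ratios -1.81, -1.98 and -2.90), whereas EPCAM (-0.19) and CDH1 (0.47) were under 2-fold. Of 3 lung adenocarcinoma markers, NKX2-1 and SFTPB had 0 counts in both libraries, and NAPSA was higher (3.77 CPM with LINC00472, against 1.33 CPM in control cells). Markers of other cell types summed to 10.3 CPM with LINC00472 (1 of 5 at 1 CPM or more, with PTPRC, PECAM1 and KRT5 at 0 counts), against 19.0 CPM in control cells (3 of 5, with 395 counts of KRT5). Their part in the results was not tested.

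The sequences of the copies set how far single members can be told apart. In the GENCODE 29 transcripts paired with the listed accessions, RGPD5 and RGPD6 had the same coding sequence, with 0 differences in 5298 bases. RGPD8 differed from RGPD5 at 10 of 5298 bases, an identity of 99.8%. RGPD1 and RGPD2 differed at 27 bases (99.5% identical) and RGPD3 and RGPD4 at 43 bases (99.2%). Each RGPD gene was between 94.8% and 95.8% identical to RANBP2 over all aligned bases, which include the end that follows GCC2. Before base 4901, the median identity over bins of 100 bases was 98% for each RGPD gene. A 60-base stretch of coding exon is shown for all 8 members because no other gap-free stretch of that length held more bases that set RGPD8 apart from both RGPD5 and RGPD6. Capitals mark the positions at which the members differ.
RGPD8: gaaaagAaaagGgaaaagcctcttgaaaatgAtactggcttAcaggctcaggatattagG
RGPD5: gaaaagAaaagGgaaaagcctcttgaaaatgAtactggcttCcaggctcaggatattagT
RGPD6: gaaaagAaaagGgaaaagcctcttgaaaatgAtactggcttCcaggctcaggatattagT
RGPD1: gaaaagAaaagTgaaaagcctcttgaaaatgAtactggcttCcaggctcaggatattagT
RGPD2: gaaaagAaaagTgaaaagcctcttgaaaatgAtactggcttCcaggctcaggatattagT
RGPD3: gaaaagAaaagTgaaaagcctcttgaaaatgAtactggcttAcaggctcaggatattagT
RGPD4: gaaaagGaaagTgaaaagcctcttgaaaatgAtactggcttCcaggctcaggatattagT
RANBP2: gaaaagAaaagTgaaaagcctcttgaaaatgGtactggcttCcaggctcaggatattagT

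Counted from 1 at the first base of this stretch, RGPD5 and RGPD6 each carried A42C and G60T relative to RGPD8. RANBP2 carried G12T, A32G, A42C and G60T relative to RGPD8. The stretch lies at chr2:112390089-112390148 in RGPD8 (minus strand), chr2:109835918-109835977 in RGPD5 (plus strand) and chr2:110535530-110535589 in RGPD6 (minus strand) in GRCh38. The deposited counts were made on hg19, so these positions do not apply to them. At most 2 bases in 60 thus set RGPD8 apart from its nearest copies in a gap-free stretch.

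The RGPD coding sequence followed RANBP2 over most of its length and GCC2 at its end. In bins of 100 bases, RGPD8 was between 93% and 100% identical to RANBP2 over the first 49 bins. From base 4901 on, its identity was between 90% and 99% with GCC2 and between 61% and 64% with RANBP2. All 7 RGPD genes changed partner in the same bin. The last 60 bases of the RGPD8 and RGPD5 coding sequences are shown beside the matching bases of GCC2, since the RGPD genes follow GCC2 there. Exact matches to GCC2 were few. Of all 100-base stretches of the RGPD8 transcript, 0.475% were also in GCC2, and of those of RGPD5 2.63%. Capitals mark differing positions. The stretch crosses an exon boundary, and the RGPD genes end in a stop codon where GCC2 reads on.
RGPD8: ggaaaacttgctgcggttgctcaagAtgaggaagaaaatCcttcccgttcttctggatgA
RGPD5: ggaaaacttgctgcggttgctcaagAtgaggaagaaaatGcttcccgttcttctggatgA
GCC2: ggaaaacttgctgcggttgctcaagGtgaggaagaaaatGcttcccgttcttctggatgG

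**Figure D1:**
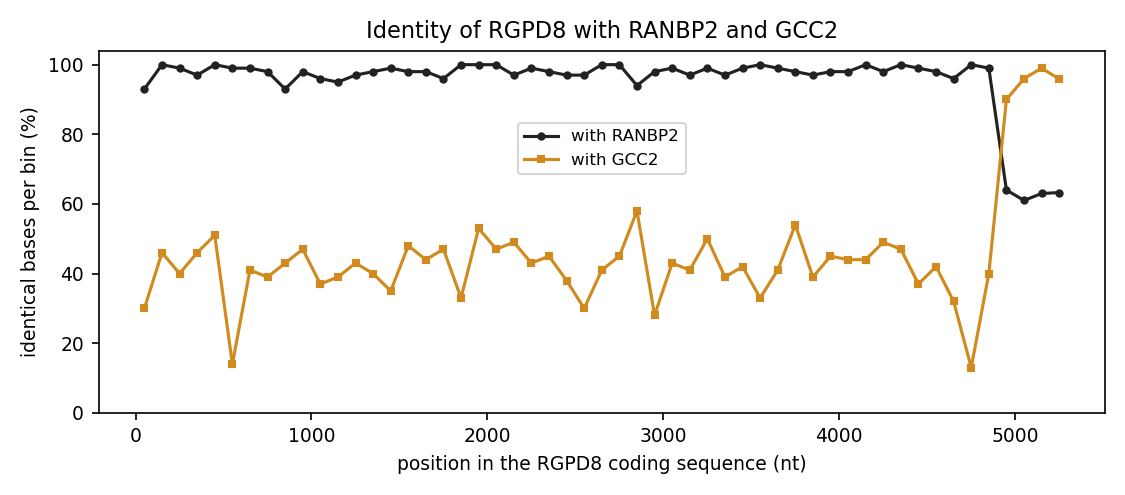
Identity of the RGPD8 coding sequence with RANBP2 (circles) and GCC2 (squares), in percent of identical bases per bin of 100 bases, against the position in the coding sequence. Identity with RANBP2 stays at 93% or more until base 4901, after which GCC2 is the closer relative.

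Reads that match 1 member alone can come only from windows that no other gene holds. Of all 100-base windows of the RGPD5 and RGPD6 transcripts, 0% were found in no other gene. The share was 10.4% for RGPD8, 2.35% for RGPD1, 7.96% for RGPD2, 35.3% for RGPD3 and 38.7% for RGPD4. RANBP2 was far better resolved, with 85.4% of its windows found in no other gene, and GCC2 had 97.4%. Of the RGPD8 windows, 84.8% were also in RGPD5. With 150-base windows the RGPD8 share was 17.5%, and with 50-base windows it was 4.41%. The read length is not given in the sources used here. No window of any member was found in a gene outside this family and GCC2. The deposited table itself marks several listed accessions of RGPD5 (3 of 5), RGPD6 (2 of 4), RGPD1 (1 of 2) and RGPD2 (1 of 2) as duplicate placements.

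**Figure D2:**
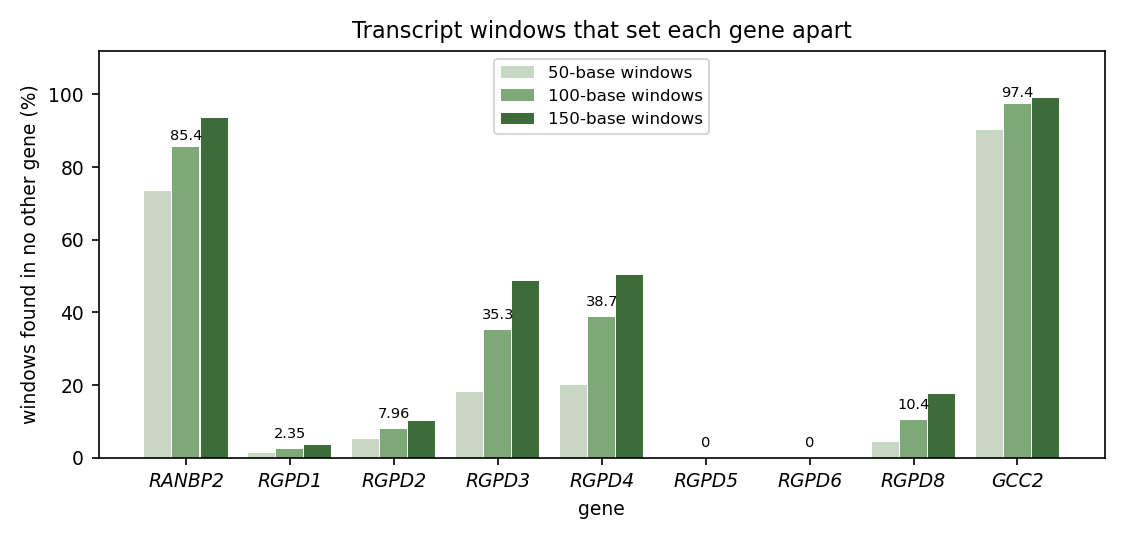
Share of transcript windows of 50, 100 and 150 bases that were found in no other gene of GENCODE 29, in percent, for each gene. RANBP2 and GCC2 are mostly distinct, whereas RGPD5 and RGPD6 have no window of their own at any of these lengths.

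RANBP2 (gene ID 5903) had by far the highest level of the family in both libraries, and it differed little between them. It had 22474 counts with LINC00472, against 41908 in control cells. That is 964 CPM with LINC00472, against 845 CPM in control cells, a log2 ratio of 0.19 (95% counting interval 0.17 to 0.21). In the deposited FPKM, which is per transcript length, RANBP2 stood at 81.6 with LINC00472, against 62.9 in control cells. It ranked 47 by mean CPM among the 14012 genes with a mean of at least 1 CPM. The median log2 ratio of those genes was -0.19, and 37.3% of them had a ratio as high as that of RANBP2 or higher. Less the median of the 500 genes nearest in length, which was 0.49, its log2 ratio was -0.30. The genes with the nearest levels over the 2 libraries were ATP13A3, a transporter of the P-type ATPase class (log2 ratio 0.00), the lysosomal precursor PSAP (0.30) and the matrix protein TGFBI (0.49).

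RGPD5 (gene ID 84220) carried most of the counts of the copies and was higher in the LINC00472 library. It had 8277 counts with LINC00472, against 5913 in control cells, so the smaller library held more RGPD5 counts. Its level was 355 CPM with LINC00472, against 119 CPM in control cells, a log2 ratio of 1.57 (interval 1.53 to 1.62), or 2.98-fold. In FPKM, RGPD5 reached 49.4 with LINC00472, against 14.5 in control cells. Per length, that is 60.5% of the RANBP2 level with LINC00472, against 23.1% in control cells.

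RGPD6 and RGPD8, the copies nearest to RGPD5, had few counts and the highest ratios. RGPD8 (gene ID 727851) had 433 counts with LINC00472, against 43 in control cells. Its level was 18.6 CPM with LINC00472, against 0.867 CPM in control cells, a log2 ratio of 4.40 (interval 3.97 to 4.91). Of the 14012 genes, 19 had a ratio as high or higher, RGPD8 included. Since the family was chosen by this ratio, nothing is read from that rank. RGPD6 (gene ID 729540) had 182 counts with LINC00472, against 22 in control cells. Its level was 7.81 CPM with LINC00472, against 0.443 CPM in control cells, a log2 ratio of 4.10 (interval 3.50 to 4.85). Both genes were under 1 CPM in the control and reached the expression minimum through the LINC00472 library. Both counts are small beside those of RGPD5, whose sequence they share.

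**Figure D3:**
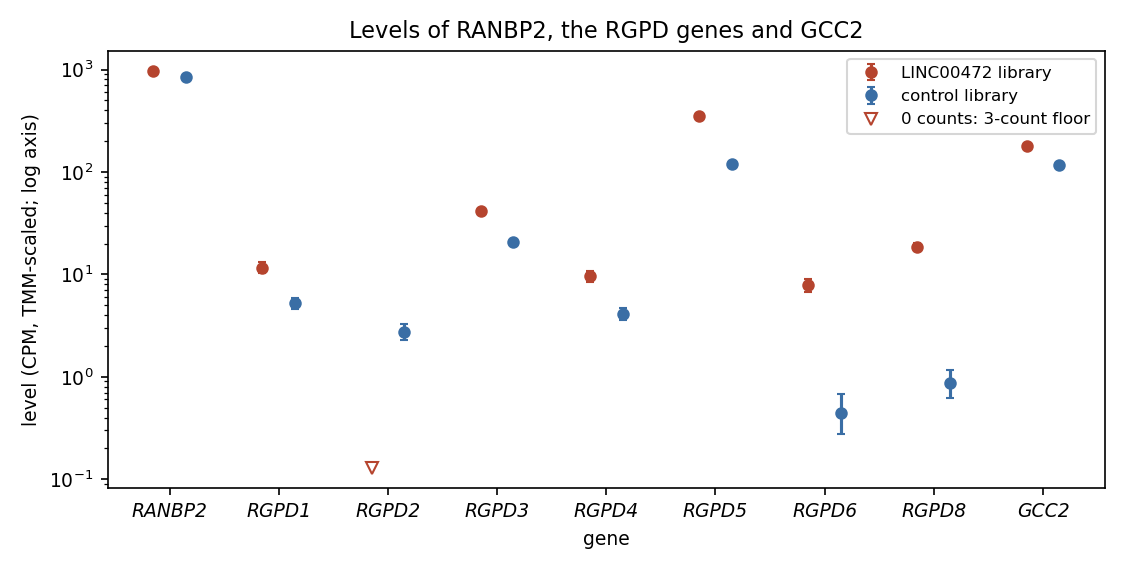
Levels in CPM (TMM-scaled, log axis) of each member and of GCC2 in the LINC00472 library (left of each pair) and the control (right of each pair), with exact Poisson 95% intervals of the counts. The open triangle marks RGPD2, which had 0 counts in the LINC00472 library, at the floor of 3 counts. RGPD2, RGPD6 and RGPD8 show wide gaps, that of RGPD2 being drawn to the floor, and RANBP2 the narrowest.

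RGPD3 and RGPD4 had ratios close to 2-fold, at different levels. RGPD3 (gene ID 653489) had 960 counts with LINC00472, against 1028 in control cells, at levels of 41.2 CPM with LINC00472 and 20.7 CPM in control cells. Its log2 ratio of 0.99 (interval 0.86 to 1.12) was just short of the 2-fold threshold of the size rule, and it passed with total-count scaling (1.28). RGPD4 (gene ID 285190) had 223 counts with LINC00472, against 205 in control cells, a log2 ratio of 1.21 (interval 0.93 to 1.49), just past it.

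RGPD1 was higher and RGPD2 lower as single genes. RGPD1 (gene ID 400966) had 271 counts with LINC00472, against 258 in control cells, a log2 ratio of 1.16 (interval 0.91 to 1.41). RGPD2 (gene ID 729857) had 0 counts with LINC00472, against 136 in control cells. Set to a floor of 3 counts in the LINC00472 library, RGPD2 was 21.3-fold lower there. The counting interval allows a smaller difference, of 17.1-fold (log2 ratio -4.10). RGPD2 also took the expression minimum from 1 library, the control, with a level of 2.74 CPM there. The summed counts of this pair were 271 with LINC00472, against 394 in control cells, a log2 ratio of 0.55 (interval 0.32 to 0.78). The ratio of the sum was under 2-fold. By construction it lies between those of the single genes. PLGLB1 and PLGLB2, a pair of plasminogen-like genes that lie next to RGPD1 and RGPD2 in the reference gene table, also differed in opposite directions. PLGLB1, which averaged under 1 CPM, had 0 counts with LINC00472, against 86 in control cells. PLGLB2 had 127 counts with LINC00472, against 64 in control cells. Summed, that pair had a log2 ratio of 0.85, and 1.13 with total-count scaling, which is past 2-fold.

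By the size rule used here, a gene was called where it averaged 1 CPM or more, differed 2-fold or more and had an interval that left out equality. All 8 members reached the minimum, 5 of them in both libraries. Of the 8, 5 were higher (RGPD1, RGPD4, RGPD5, RGPD6 and RGPD8), 1 was lower (RGPD2) and RANBP2 and RGPD3 met neither side. Over all 14012 genes at the minimum, 16.3% were higher and 23.8% lower by the same rule. The median log2 ratio of the 8 members was 1.18, also with RGPD2 at the floor of 3 counts. Since the members were chosen with the RGPD8 ratio known, nothing is read from this count. With total-count scaling the background was 3155 higher and 2297 lower genes, against 2288 and 3341 with TMM, and with upper quartile factors it was 3531 and 1993. Of 121 genes at the minimum with an accession marked as a duplicate placement, a group picked after the values were seen, 36.4% were higher and 26.4% lower.

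A sum over copies does not depend on how reads shared among them were divided, provided that each read was counted 1 time, which the sources used here do not say. It still depends on reads shared with genes left out of the sum. Of the 100-base windows of RANBP2, 14.6% were also in an RGPD gene. Of those of RGPD3, 22.2% were in RGPD5, and of those of RGPD1, 23.9% were in RGPD4. The effect of such reads on the sums was not tested. RGPD5, RGPD6 and RGPD8 together had 8892 counts with LINC00472, against 5978 in control cells, a log2 ratio of 1.66 (interval 1.61 to 1.71). That is 3.16-fold, against the 21.1-fold of RGPD8 alone. RGPD3 and RGPD4 together had 1183 counts with LINC00472, against 1233 in control cells (log2 ratio 1.03, interval 0.91 to 1.15). All 7 RGPD genes had 10346 counts with LINC00472, against 7605 in control cells, a log2 ratio of 1.53 (interval 1.49 to 1.58), or 2.89-fold. Without RGPD5 the log2 ratio of the sum was 1.38. With RANBP2 added, the whole family had 32820 counts with LINC00472, against 49513 in control cells, a log2 ratio of 0.50 (interval 0.48 to 0.52). The RGPD share of the family's counts was 31.5% with LINC00472 (exact Clopper-Pearson 95% interval 31.0 to 32.0), against 15.4% in control cells. Per length, the summed RGPD level was 77.4% of that of RANBP2 with LINC00472, against 30.8% in control cells.

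**Figure D4:**
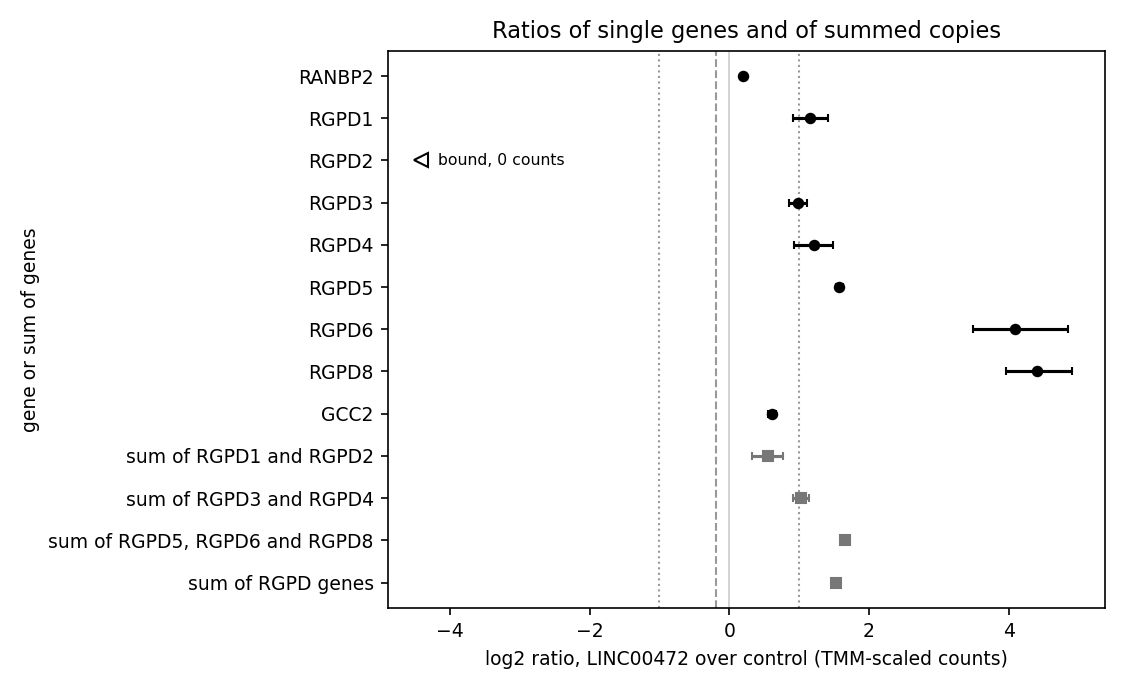
Log2 ratios of LINC00472 over control with 95% counting intervals, for single genes (circles) and for sums of copies (squares). The dashed line is the median of all genes at -0.19 and the dotted lines mark 2-fold. The open triangle, labelled as a bound, is RGPD2 at the floor of 3 counts. The sums plotted, which are of RGPD genes without RANBP2, lie between 0.55 and 1.66. By construction each sum lies between the ratios of its own copies. Single copies run from -4.41, the RGPD2 value at that floor, to 4.40.

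RGPD5 took most of the RGPD counts in both libraries, while the shares of RGPD8 and RGPD6 were larger with LINC00472. The RGPD5 share was 80.0% with LINC00472 (exact 95% interval 79.2 to 80.8), against 77.8% in control cells (76.8 to 78.7). RGPD3 followed with 9.28% with LINC00472, against 13.5% in control cells. RGPD8 took 4.19% with LINC00472 (3.81 to 4.59), against 0.565% in control cells (0.409 to 0.761). RGPD6 took 1.76% with LINC00472 (1.51 to 2.03), against 0.289% in control cells (0.181 to 0.438). RGPD2 took 0% in the LINC00472 library, where 0 of 10346 counts allows a share of up to 0.0290% by the floor of 3 counts (exact upper limit 0.0356%), and 1.79% in the control. The high ratio of RGPD8 thus rests on a small part of the RGPD counts, and how shared reads were divided was not tested. The transcript length implied by deposited counts and FPKM was 6214 bases for RGPD6 with LINC00472 and 7989 in control cells, whereas for RGPD8 it was 7296 and 7309 bases.

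**Figure D5:**
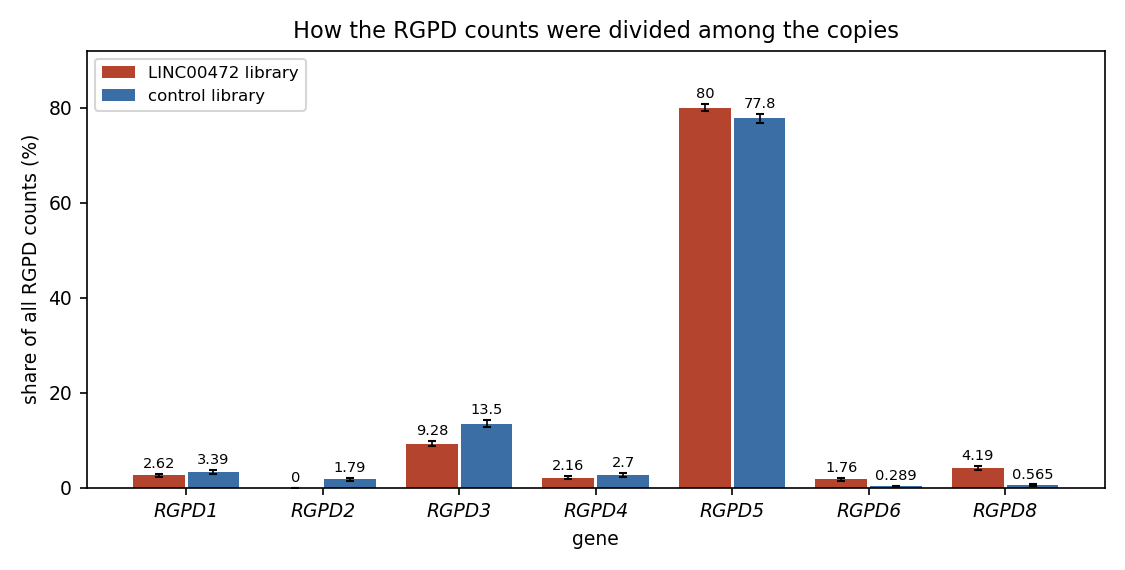
Share of all RGPD counts assigned to each copy, in percent, in the LINC00472 library (left bars) and the control (right bars), with exact 95% intervals. RGPD5 takes most counts in both, and RGPD6 and RGPD8 take larger shares in the LINC00472 library.

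GCC2 (gene ID 9648), whose end the RGPD genes share, had a ratio under 2-fold. It had 4178 counts with LINC00472, against 5839 in control cells, a log2 ratio of 0.61 (interval 0.55 to 0.66). Of its 100-base windows, 2.61% were also found in an RGPD gene, with 2.53% in RGPD5 and 0.350% in RGPD8. Among 4 GRIP-domain golgins, GOLGA1 (log2 ratio 1.09) was higher, GCC1 (-1.01) was lower with TMM but not with total-count scaling (-0.72), and GCC2 and GOLGA4 (0.54) met neither side.

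Genes beside the members in the reference gene table had ratios of both signs. ZC3H6, a zinc finger gene next to RGPD8, had 1467 counts with LINC00472, against 577 in control cells, a log2 ratio of 2.43. TTL, the tubulin tyrosine ligase on the other side of RGPD8, had a log2 ratio of -1.02, and -0.74 with total-count scaling, which is under 2-fold. LIMS1, an adaptor of integrin adhesions beside RANBP2, was lower (-1.42), and CCDC138 on its other side had a log2 ratio of 0.16. LIMS3 beside RGPD5 (-0.80), LIMS4 beside RGPD6 (-0.06) and the checkpoint kinase BUB1 (-0.03) met neither side.

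Partners of RANBP2 in nuclear transport were lower or met neither side. Of all 14012 genes at the minimum, 23.8% were lower and 16.3% higher by the same rule. Of 10 nucleoporins and export factors of the cytoplasmic face, 0 were higher and 5 lower (median log2 ratio -0.996), a count that depended on the scaling. The filament base NUP214 had a log2 ratio of 0.23 and NUPL2 of 0.02, whereas the channel protein NUP62 (-1.77) and the export factor GLE1 (-1.32) were lower. Of 6 Ran cycle genes, 0 were higher and 6 lower (median -1.89). RANBP1, a small Ran-binding protein, had 731 counts with LINC00472, against 6836 in control cells, a log2 ratio of -2.14. NUTF2, which imports Ran, had a log2 ratio of -2.13, RANGAP1, the Ran GTPase activator held by RANBP2, of -1.62, and RANBP3 of -1.15. Of 6 transport receptor genes, 0 were higher and 3 lower (median -0.84), with XPO1 at 0.16, NXF1 at 0.12, NXT1 at -2.36 and KPNA2 at -1.40. Among motor partners, the kinesin KIF5B (-1.30) and the dynein adaptor BICD2 (-1.02) were lower, and the other members of that list were under the minimum. With total-count scaling, the lower genes numbered 2 of the 10 nucleoporins and export factors, 5 of the 6 Ran cycle genes, 2 of the 6 receptors and 1 of the 2 motor genes. With upper quartile factors they numbered 1, 5, 2 and 0 in these lists. Over all genes, 2297 were lower with total-count scaling and 1993 with upper quartile factors, against 3341 with TMM. Of the genes named, RANBP3 and BICD2 were under 2-fold with both of these scalings, and GLE1 and KIF5B with upper quartile factors.

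The SUMO pathway and the cyclophilins, whose fold RANBP2 carries in 1 of its domains, held members on both sides. Of 20 SUMO genes, 3 were higher and 9 lower (median -0.58). The E3 ligase PIAS2 had 7602 counts with LINC00472, against 4755 in control cells (log2 ratio 1.77), and the protease SENP7 was higher as well (1.17). SUMO3, a SUMO protein, was lower (-2.38). Of 12 cyclophilin genes, 1 was higher and 5 lower (median -0.86). NKTR, a large cyclophilin with a long arginine and serine-rich tail, had 17609 counts with LINC00472, against 10341 in control cells (1.86), and PPIL3 stood at 0.25. Cyclophilin A, PPIA (-2.14), and PPIL1 (-1.93) were lower. Over all 60 listed genes at the minimum, 5 were higher and 31 lower (median -1.02), beside 16.3% and 23.8% of all genes. With total-count scaling 20 of them were lower and 5 higher, and with upper quartile factors 18 lower and 7 higher. In both of these scalings, 6 SUMO genes and 4 cyclophilins were lower. The higher SUMO genes numbered 3 with total-count scaling and 5 with upper quartile factors, and 1 cyclophilin was higher with each. Over all genes, these scalings gave 3155 and 3531 higher genes, and 2297 and 1993 lower.

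Some 5' ends of RGPD5, RGPD6 and RGPD8 also share sequence. Promoter windows (250 bases before to 50 after a RefSeq start, GRCh38.p14) are shown for RGPD8 (chr2:112433596-112433895, minus strand), a start of RGPD6 (chr2:110577173-110577472, minus strand) and RANBP2 (chr2:108719232-108719531, plus strand). They are shown because RGPD8 and RGPD6 had the highest ratios and RANBP2 a low one. Of the 4 RGPD6 starts, the one with the longest run shared with RGPD8 was picked after all were compared. RefSeq windows were matched for 5 of the 8 members, and only those of RANBP2, RGPD5, RGPD6 and RGPD8 were compared. Capitals mark GACGTC, a palindrome that 5.03% of all promoter windows hold.
RGPD8: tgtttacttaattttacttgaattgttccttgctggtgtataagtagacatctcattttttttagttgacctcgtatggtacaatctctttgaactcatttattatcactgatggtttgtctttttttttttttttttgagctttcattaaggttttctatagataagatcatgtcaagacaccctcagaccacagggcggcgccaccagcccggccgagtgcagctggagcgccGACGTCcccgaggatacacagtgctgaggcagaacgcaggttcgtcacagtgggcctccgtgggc
RGPD6: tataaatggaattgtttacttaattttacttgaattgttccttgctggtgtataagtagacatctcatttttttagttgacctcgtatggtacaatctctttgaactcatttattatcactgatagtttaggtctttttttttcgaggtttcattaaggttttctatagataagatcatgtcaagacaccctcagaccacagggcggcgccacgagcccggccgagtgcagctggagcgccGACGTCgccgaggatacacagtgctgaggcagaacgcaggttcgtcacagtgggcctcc
RANBP2: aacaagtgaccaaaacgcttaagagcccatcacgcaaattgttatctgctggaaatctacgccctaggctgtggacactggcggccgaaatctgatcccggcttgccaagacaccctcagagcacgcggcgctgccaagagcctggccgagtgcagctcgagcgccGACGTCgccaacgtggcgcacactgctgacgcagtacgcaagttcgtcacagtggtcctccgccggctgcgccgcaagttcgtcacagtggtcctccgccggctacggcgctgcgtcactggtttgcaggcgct

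The RGPD8 and RGPD6 windows had a longest shared run of 65 bases, and a start of RGPD5 shared 263 bases with that of RGPD6. RGPD8 and RANBP2 shared at most 15 bases in a row. The other RGPD6 starts shared at most 16 bases in a row with RGPD8. The windows shown each held GACGTC once, whereas the other RGPD6 starts and the other start of RGPD5 held 0 matches. CCAAT, searched on both strands, was in none of the windows shown and in 34.6% of all windows. TATAA, searched on both strands, was in RGPD8 once and in RGPD6 2 times, and in 20.4% of all windows. A match describes these letters only.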

How the data were processed

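Total RNA of 1 LINC00472 and 1 control culture of NCI-H838 was compared, grouped by title. The authors deposited raw read counts for each gene and FPKM (counts per length and depth), once for the pair of libraries and once for each library, and the counts differed for 0 genes. Per the submitters' processing notes, the genome build was hg19 and the tools were StringTie 1.3.4b, HISAT2 2.1.0, Trimmomatic and bcl2fastq 2.20.0, with no role or order stated. How reads that fit several copies were counted, the strand setting, the read length and the library kit were not stated in those sources.

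TMM factors computed over the whole table by edgeR 4.0.16 under R 4.3.3 were 1.11 for LINC00472 and 0.905 for control. The log2 ratio used a prior count of 0.5, and its interval is the exact conditional (Clopper-Pearson) 95% interval of 2 counts. With 1 library per group no test was run. With totals of 21093055 and 54823706 counts, intervals are narrow for RANBP2 and RGPD5 and wide for RGPD6 and RGPD8. The floor for a count of 0 was 3 counts per library.

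Windows and coding sequences came from GENCODE 29 transcripts (GRCh38) paired with the listed RefSeq accessions, and were aligned with MAFFT 7.526. These transcripts can differ from the hg19 models behind the counts. Promoter windows came from RefSeq. Lengths for the length comparison came from the ratio of deposited counts to FPKM, scaled on 5221 genes with 1 accession.

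The members, the gene lists and the rule for named genes were chosen with earlier results of these data known. Named were all members, GCC2, the 2 highest and 2 lowest of each list at 1 CPM or more, the next protein-coding gene on each side and the 3 genes nearest to RANBP2 in level. One gene that this rule names is not reported here. The size rule was checked on simulated Poisson counts, which hold no variation between cultures and no reads shared between copies. Alternatives were a prior count of 5, scaling by total counts, by upper quartile or by DESeq2 1.42.0 size factors, FPKM with 0.5 or 0.01 added, other expression minimums, the single-library tables, a length comparison and the control counts thinned to the total of the LINC00472 library. Python 3.11.15 ran scipy 1.17.1, pandas 2.3.3 and, for plots, matplotlib 3.10.9.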

Additional observations from a re-analysis of the deposited data

How the results depend on the processing

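RANBP2 met neither side of the size rule, and RGPD5, RGPD6 and RGPD8 were higher, under the alternatives run, except that RGPD6 is under a minimum of 5 CPM. With FPKM and 0.5 added the log2 ratio of RGPD8 was 2.32 and that of RGPD6 1.67. RGPD3 was higher with upper quartile factors (log2 ratio 1.38), total counts (1.28), FPKM with 0.5 added (1.06), FPKM with 0.01 added (1.17) and summed with RGPD4 (1.03). RGPD1 fell short of 2-fold with FPKM and 0.5 added (0.91) and against genes of like length (0.96), and so did RGPD4 (0.86 and 0.96). RGPD2 had a log2 ratio of -0.90 with FPKM and 0.5 added, where the constant is close to the level itself. The sum of RGPD1 and RGPD2, an alternative chosen after seeing the data, gave 0.55, which ends the call of RGPD1 and turns the direction of RGPD2. The sum of the RGPD genes was higher under each scaling and without any 1 of its members. The count of members on the lower side was 0 at a minimum of 5 CPM, which RGPD2 does not reach. The list genes on the lower side numbered 18 under upper quartile and 20 under total-count scaling. Over all genes, 1347 were higher at a minimum of 5 CPM and 3657 with no minimum, and upper quartile factors gave 3531 higher and 1993 lower. The all-gene median log2 ratio, -0.19 with TMM, became 0.21 under upper quartile factors and 0.11 under total-count scaling. The share of RGPD counts assigned to RGPD8 stayed within its counting interval when taken from FPKM. The cause of these changes was not tested, apart from the sums and the minimum, which act by construction. No paired analysis was possible because each group held 1 library.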

Other observations

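Other families of duplicated genes, taken by symbol, held 73 genes at 1 CPM or more in 13 families. Of these genes, 47 were higher and 3 lower by the size rule, which called 16.3% of all genes higher and 23.8% lower. SPDYE had no gene at the minimum, and symbols that only share the letters of TBC1D3 and WASH were left out after the values were seen. The summed counts of each of the 13 families had a positive log2 ratio, with a median of 1.21. Sums of 4 of these families were at least as high as that of the RGPD genes (1.53). The ankyrin repeat family ANKRD36 had 42534 counts with LINC00472, against 17981 in control cells (log2 ratio 2.33), and its 3 genes lay within 0.083 of each other. The NOMO genes lay between 0.95 and 0.97, and their sum passed 2-fold with total-count scaling (1.25).

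In 4 of the 13 families a single copy had 0 counts in 1 library, as RGPD2 did. Each such copy reached the minimum of 1 CPM through its other library alone, so nothing is read from its single ratio. The calls over these families include these copies. TBC1D3B and WASH5P had 0 counts with LINC00472, while the sums of their families had log2 ratios of 0.77 and 0.38. NPIPA3 and POTEJ had 0 counts in control cells, while the sums of their families had log2 ratios of 1.35 and 1.65.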
